A study of Mus musculus with 5 samples.

Results

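Aquaporins are small membrane channels that let water pass along an osmotic gradient. Orthodox members such as Aqp1, Aqp4 and Aqp5 carry mainly water, aquaglyceroporins such as Aqp3 and Aqp9 also carry glycerol, and Aqp11 is a distant member found mainly in intracellular membranes. In epithelia, different members sit in the apical and the basolateral membrane and serve secretion, absorption and the control of cell volume. The 7 genes described here (Aqp1, Aqp3, Aqp4, Aqp5, Aqp8, Aqp9 and Aqp11) were taken by symbol from 17923 genes listed in at least 1 library. The family was chosen by the measured level of 1 member, because Aqp1 was high in every library labelled BVE-Ctnnb1null, so differences of its members between the groups are described here and not tested. Of the 7 genes, 6 were listed in at least 1 library and 4 passed a filter on low counts.

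All 5 RNA-seq libraries came from mouse thyroid tumor cell lines driven by BrafV600E, an activated form of a kinase of the MAPK pathway. By the labels, 2 libraries (BVE-Ctnnb1wt) kept Ctnnb1, which encodes β-catenin, and 3 (BVE-Ctnnb1null) had lost it by deletion. Both BVE-Ctnnb1wt libraries (replicates 1 and 2) bore the line name BVE at passage 20, the former labelled as grown without TSH, the thyroid-stimulating hormone, and the latter as grown with it. Those labelled BVE-Ctnnb1null bore the line names BVECTN_4 (replicate 1, passage 8, without TSH), BVECTN_4A (replicate 2, passage 11) and BVECTN_5 (replicate 3, passage 7), and TSH is not stated for the last pair. The protocol instead gives about 25 passages for the BVE-Ctnnb1wt and about 20 for the BVE-Ctnnb1null cells. Nothing states that the libraries come from separate animals or clones, and the strain and age of the donor mice and the Cre driver are not given in the sources used here. Line, passage and genotype therefore cannot be told apart, and the spread among BVE-Ctnnb1wt libraries is that of a single line.

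The deposited values are estimated counts per transcript and FPKM, which divides them by transcript length and library total. Estimated counts summed to 30432737 and 30713079 in BVE-Ctnnb1wt replicates 1 and 2 and to 29929677, 29360002 and 29415980 in BVE-Ctnnb1null replicates 1, 2 and 3. A count of 0 allows a level of up to 3 counts, about 0.10 CPM (the count scaled to a common library total) at these depths, for counting error only. Ctnnb1 RNA had an FPKM of 59.3 and 73.8 in the BVE-Ctnnb1wt libraries and of 124.6, 196.3 and 117.8 in BVECTN_4, BVECTN_4A and BVECTN_5. After TMM normalization, which corrects library totals for a few very abundant genes, the groups overlapped, with 251.1 and 356.4 CPM against 418.2, 572.2 and 343.8. Ctnnb1 RNA was thus not lower in the libraries labelled as deleted by either measure, and values per transcript cannot show whether single exons are missing. The groups are therefore given as labelled, and each direction below is between labels. Among the markers of thyroid follicular cells, Nkx2-1 had an FPKM of 9.21 and 15.0 in the BVE-Ctnnb1wt libraries and of 9.26, 34.8 and 0.26 in the BVE-Ctnnb1null libraries. Pax8 had 0.40 and 0.17 against 18.2, 12.8 and 2.56. Hhex had 3.71 and 4.14 against 1.08, 20.2 and 1.38. Tg, the precursor of thyroid hormone, was under an FPKM of 1 in every library, with 0.80 and 0.86 against 0.04, 0.51 and 0.34. Tshr, Foxe1, Duox2 and Iyd had at most 0.11. Slc5a5, the iodide transporter, was highest in BVECTN_4 with 6.48.

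Aqp1 was scarce in the BVE line and abundant in each line labelled BVE-Ctnnb1null, while Aqp5 ran the other way. Aqp1 had 63 and 54 counts in the BVE libraries without and with TSH, and 2379, 2583 and 3806 counts in BVECTN_4, BVECTN_4A and BVECTN_5. Its FPKM was 0.685 ± 0.078 (SD, n = 2) in the BVE-Ctnnb1wt and 35.5 ± 9.56 (SD, n = 3) in the BVE-Ctnnb1null libraries, a ratio of means of 51.9. The lowest BVE-Ctnnb1null library was 38.6-fold above the highest BVE-Ctnnb1wt library, so the groups did not overlap. Every BVE-Ctnnb1null FPKM lay above both BVE-Ctnnb1wt values in 35.9% of the 13240 genes tested. For Aqp1 the log2 fold change was 5.11 (standard error 0.54), against a median of 0.29 over all genes tested, and 3.07% of the genes, Aqp1 included, had one at least as high. After TMM normalization, every null-labelled library was again above both BVE libraries, as in 22.6% of the genes. Among all listed genes, Aqp1 moved from rank 9855 of 14565 by FPKM in BVE-Ctnnb1wt replicate 1 to rank 2820 of 15782 in BVECTN_4 and rank 1908 of 15972 in BVECTN_5. In such bulk RNA, fewer cells that express a gene and less RNA per cell cannot be told apart.

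Among the null-labelled lines, the highest FPKM of Aqp1 was 1.63-fold its lowest, with BVECTN_4 and BVECTN_4A close together and BVECTN_5 above both. On log2(FPKM + 0.1), this range was 0.70, and the median range of 10827 genes with a mean FPKM of at least 1 was 1.38. The family was chosen for the level of Aqp1 in these same lines, so nothing is read from this comparison. The Poisson intervals of the counts, which cover counting error only, ran from 2284 to 2477 in BVECTN_4, from 2484 to 2685 in BVECTN_4A and from 3686 to 3929 in BVECTN_5.

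Aqp5, the apical water channel of salivary, lacrimal and airway glands, was the main aquaporin of the BVE line. It had 4226 and 4305 counts in the BVE libraries and 388, 1623 and 120 counts in BVECTN_4, BVECTN_4A and BVECTN_5. The FPKM was 89.6 ± 0.52 (SD, n = 2) in the BVE-Ctnnb1wt and 15.6 ± 17.7 (SD, n = 3) in the BVE-Ctnnb1null libraries. The BVE-Ctnnb1wt mean was 5.75-fold higher, and the lowest BVE-Ctnnb1wt value was 2.50-fold above the highest BVE-Ctnnb1null value, so the groups did not overlap. Every BVE-Ctnnb1null FPKM lay below both BVE-Ctnnb1wt values in 7.22% of the genes tested. After TMM normalization the groups were again apart, as in 17.3% of the genes. Aqp5 had a log2 fold change of -3.14 (SE 0.98), with 1.04% of the genes at least as low, Aqp5 included, and of -4.64 without BVECTN_4A. Aqp5 varied widely among the null-labelled lines, with an FPKM of 8.38 in BVECTN_4, 35.7 in BVECTN_4A and 2.63 in BVECTN_5. That 13.6-fold range was wider, on log2(FPKM + 0.1), than the range of 90.1% of the 10827 genes.

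**Figure D1:**
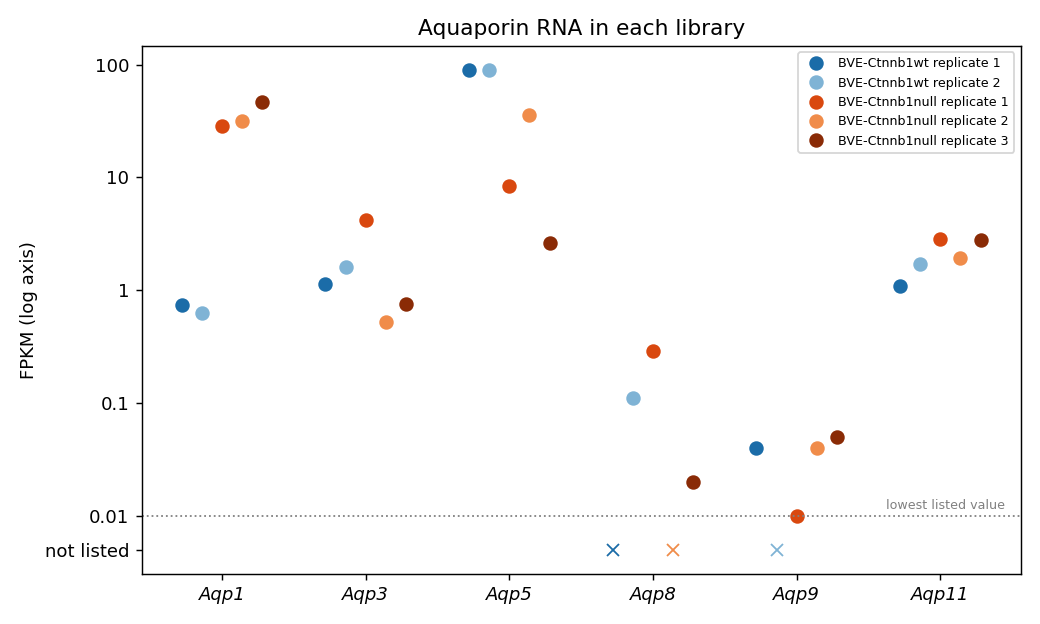
FPKM (log axis) of the 6 listed aquaporin genes in each library, with crosses where a gene was not listed and a dotted line at the lowest listed value of 0.01. Aqp1 lay at 0.63 and 0.74 in the BVE-Ctnnb1wt libraries (blue) and between 28.6 and 46.4 in the BVE-Ctnnb1null libraries (orange and brown), and Aqp5 lay at 89.2 and 90.0 against 2.63 to 35.7.

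Summed over all aquaporin genes, FPKM was 92.5 and 94.2 in the BVE libraries and 44.4, 69.9 and 52.7 in BVECTN_4, BVECTN_4A and BVECTN_5. Aqp5 made up 96.5% and 95.5% of it in the BVE libraries, and Aqp1 0.80% and 0.67%. In BVECTN_4, Aqp1 held 64.4% and Aqp5 18.9%. BVECTN_5 went furthest, with 88.1% Aqp1 and 4.99% Aqp5. In BVECTN_4A the pair was nearly level, at 45.3% Aqp1 and 51.2% Aqp5, so the order of Aqp1 and Aqp5 was turned in 2 of the 3 lines. The FPKM of Aqp5 over that of Aqp1 was 120.6 and 142.8 in the BVE libraries, 1.13 in BVECTN_4A, 0.293 in BVECTN_4 and 0.0566 in BVECTN_5.

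**Figure D2:**
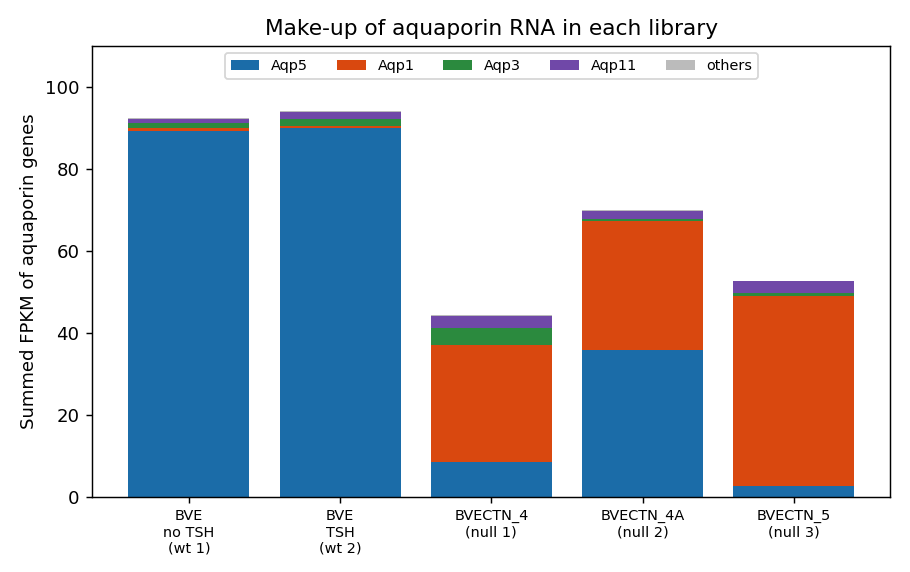
Summed FPKM of all aquaporin genes in each library (linear axis from 0), divided by gene. Aqp5 (blue) made up 96.5% and 95.5% of the BVE bars, and Aqp1 (orange) made up 64.4%, 45.3% and 88.1% of the BVECTN_4, BVECTN_4A and BVECTN_5 bars.

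The 250 bases before the annotated start of Aqp1 and of Aqp5 are shown because these genes carry the opposite patterns. Both come from RefSeq, build GRCm38.p6, plus strand, 5′ to 3′, and CG dinucleotides are in capitals. The build behind the deposited files is not stated. The windows lie at chr6:55336049-55336298 for Aqp1 and at chr15:99590778-99591027 for Aqp5.
Aqp1: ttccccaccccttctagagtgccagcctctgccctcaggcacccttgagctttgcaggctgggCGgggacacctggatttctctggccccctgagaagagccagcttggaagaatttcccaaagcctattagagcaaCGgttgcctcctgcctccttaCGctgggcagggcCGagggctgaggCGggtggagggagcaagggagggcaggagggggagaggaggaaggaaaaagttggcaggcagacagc
Aqp5: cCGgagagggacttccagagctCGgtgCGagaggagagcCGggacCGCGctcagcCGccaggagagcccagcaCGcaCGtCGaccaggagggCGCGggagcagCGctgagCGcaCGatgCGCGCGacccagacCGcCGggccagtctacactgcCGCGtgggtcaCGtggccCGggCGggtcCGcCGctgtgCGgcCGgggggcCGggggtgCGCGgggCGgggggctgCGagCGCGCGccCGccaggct
The Aqp1 window held 5 CG dinucleotides, near the median of 6 over 32851 such windows, and 62% of its bases were G or C, above the median of 52.4%. With 38 CG dinucleotides, the Aqp5 window held more than 98.1% of them, and 78.4% of its bases were G or C. β-catenin acts on genes through TCF/LEF factors, so the letters CTTTGAT and CTTTGAA were searched on both strands in 300-base windows that also take the 50 bases after the start. They occurred in 0 of 7 windows of the 6 member genes that have one and in 8.65% of 32851 windows, which says only that these letters are not in those windows.

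The aquaglyceroporins were low. Aqp3, the basolateral water and glycerol channel of many epithelia, had 61 and 88 counts in the BVE libraries and 223, 27 and 39 counts in BVECTN_4, BVECTN_4A and BVECTN_5. Its FPKM was 1.38 ± 0.33 (SD, n = 2) in the BVE-Ctnnb1wt and 1.83 ± 2.08 (SD, n = 3) in the BVE-Ctnnb1null libraries. BVECTN_4 was above both BVE libraries and the other null-labelled lines were below them, so the groups overlapped. Aqp3 had a log2 fold change of -0.11 (SE 1.12), and it was -1.80 without BVECTN_4. Aqp9, best known from hepatocytes, had 3 and 0 counts in the BVE libraries and 1, 3 and 4 counts in the BVE-Ctnnb1null libraries. These counts are at or near the limit of 3, and no difference was detectable at this depth.

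Aqp11 RNA was low in every library. It had 44 and 69 counts in the BVE libraries and 112, 74 and 107 counts in BVECTN_4, BVECTN_4A and BVECTN_5. The FPKM was 1.40 ± 0.43 (SD, n = 2) in the BVE-Ctnnb1wt and 2.51 ± 0.52 (SD, n = 3) in the BVE-Ctnnb1null libraries, with every null-labelled line above both BVE libraries. After TMM normalization the groups overlapped, with 3.06 CPM in the BVE library with TSH and 2.06 in BVECTN_4A. Between the groups it differed by a log2 fold change of 0.25 (standard error 0.75), against the median of 0.29 over all genes tested, and of -0.18 without the BVE library grown without TSH.

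Aqp4, the water channel of astrocyte end-feet, was not listed in any of the 5 libraries. Aqp8, a channel for water and hydrogen peroxide, had 0 and 5 counts in the BVE libraries and 13, 0 and 1 counts in BVECTN_4, BVECTN_4A and BVECTN_5. Its highest FPKM was 0.29, in BVECTN_4, and the groups overlapped. Of the 5 other aquaporin genes, Aqp2, Aqp7 and Aqp12 were not listed and the lens gene Mip had at most 2 counts. Aqp6, an intracellular channel of the kidney, had 14 and 10 counts in the BVE libraries and 2, 2 and 0 counts in the BVE-Ctnnb1null libraries, too few to pass the filter. Each of the 8 aquaporin genes that were listed was represented by a single RefSeq transcript, so no isoforms could be compared.

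Among the 7 members, the order by mean FPKM in the BVE-Ctnnb1wt libraries was Aqp5, Aqp11, Aqp3 and Aqp1, followed by Aqp8 and Aqp9 at under 0.1. Aqp11 and Aqp3 did not differ beyond their spread there, with 1.09 and 1.70 against 1.14 and 1.61. In the BVE-Ctnnb1null libraries the order was Aqp1, Aqp5, Aqp11 and Aqp3. Aqp1 and Aqp5 overlapped there, since Aqp5 in BVECTN_4A at 35.7 was above Aqp1 in BVECTN_4 at 28.6 and in BVECTN_4A at 31.6, and Aqp11 and Aqp3 overlapped as well.

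The BVE libraries differ in their TSH label, with 1 library each, so their difference has no replicate check. The ratio of CPM with TSH to those without was 1.01 for Aqp5 (95% counting interval 0.967 to 1.05) and 0.849 for Aqp1 (0.579 to 1.24). For Aqp3 it was 1.43 (1.02 to 2.02) and for Aqp11 1.55 (1.05 to 2.32). These intervals compare the libraries and not the conditions. For Aqp1 and Aqp5, the difference between the BVE libraries was far smaller than that between either of them and any null-labelled line. The family was chosen for the gap in Aqp1, and TSH is not stated for BVECTN_4A and BVECTN_5. The part of TSH in these differences was not tested.

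The direction of Aqp1 and Aqp5 held under each of the 14 other settings tried. The family was chosen because Aqp1 was high in every null-labelled library, so nothing is read from its steady sign. The log2 fold change of Aqp1 lay between 4.41 and 5.69 and that of Aqp5 between -4.64 and -2.53. Aqp3 ran from -1.80 to 0.41 and Aqp11 from -0.18 to 0.86, so each changed sign under at least 1 setting.

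**Figure D3:**
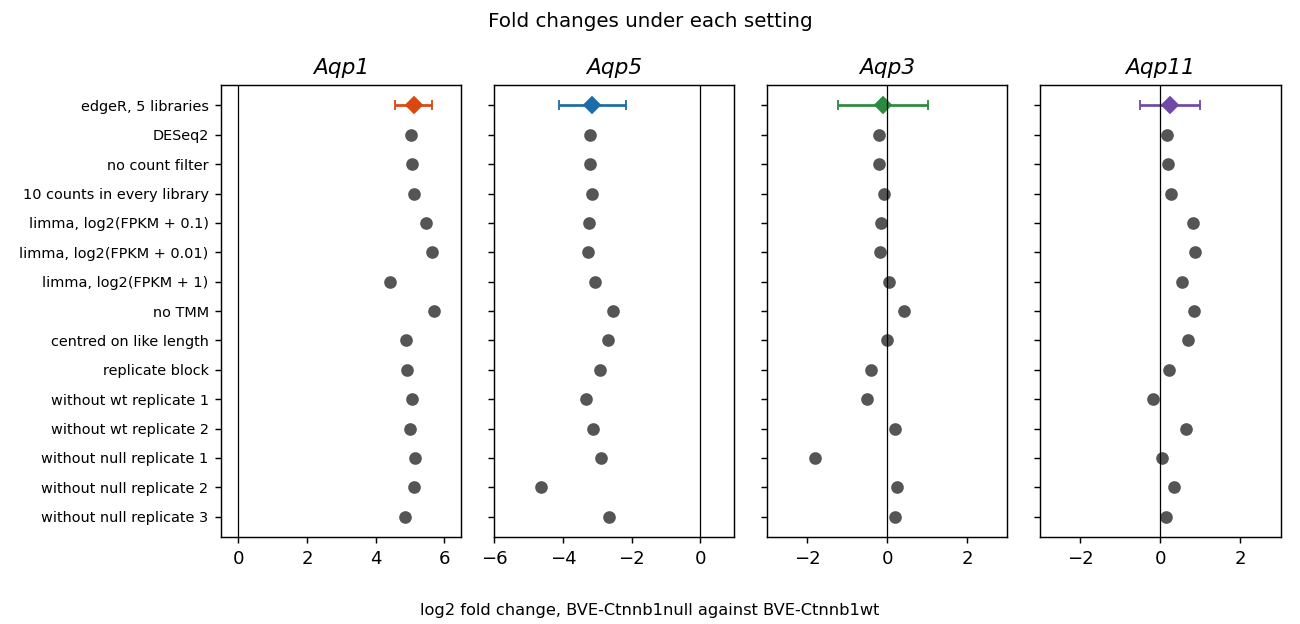
Log2 fold change of the 4 genes that passed the filter (x axis, BVE-Ctnnb1null against BVE-Ctnnb1wt), with the fit over 5 libraries as a diamond with its standard error and each other setting as a dot. Aqp1 stayed between 4.41 and 5.69 and Aqp5 between -4.64 and -2.53, while Aqp3 (-1.80 to 0.41) and Aqp11 (-0.18 to 0.86) had values on both sides of 0.

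Transcript length moved with the group over the whole data set. With the tested genes in 5 groups of about equal size by length, the median log2 fold change was -0.45 in the shortest (up to 1584 bases) and -0.11, 0.24, 0.59 and 1.21 in the following groups, the last from 4562 bases up. Aqp1 (2760 bases) fell in the middle group, where 89 of 2649 genes had a log2 fold change at least as high. Aqp5 (1551 bases) fell in the shortest group, where 57 of 2648 genes had one at least as low. Relative to the median of their length group, the log2 fold changes were 4.87 for Aqp1, -2.69 for Aqp5, -0.01 for Aqp3 and 0.70 for Aqp11. Length was examined after the values were seen, and its part in these differences was not tested further.

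Markers of other cell types were compared because Aqp1 is also a gene of endothelium, red blood cells and some fibroblasts and mesothelium. Of 10 endothelial markers, 9 were listed, and Pecam1, Cdh5, Tek, Tie1 and Emcn had an FPKM of at most 0.04 in every library while Cldn5 was not listed. The summed FPKM of this list, 38.4 and 31.2 in the BVE libraries against 15.0, 7.71 and 6.86, was mostly Egfl7, and Kdr had at most 4 counts except in BVECTN_5 with 102. Of 9 erythroid markers, 6 were listed. Their sum was at most 2.71 in any library, led by Hba-a1, and it was 0.16, 0.97 and 0.14 in BVECTN_4, BVECTN_4A and BVECTN_5.
The 9 fibroblast markers, led by Col1a1, summed to an FPKM of 290 and 255 in the BVE libraries and to 1.70, 148 and 1413 in BVECTN_4, BVECTN_4A and BVECTN_5. Aqp1 had an FPKM of 28.6 in BVECTN_4, where this sum was lowest, and of 46.4 in BVECTN_5, where the sum was highest. Thy1 had 0.24 and 0.11 in the BVE libraries and 0.19, 0.06 and 88.5 in BVECTN_4, BVECTN_4A and BVECTN_5. Postn had 0 counts in both BVE libraries and an FPKM of 0.13, 0.02 and 101.6 in the null-labelled lines. The 7 smooth muscle and pericyte markers summed to 87.2 and 74.9 in the BVE libraries and 1.60, 210.7 and 1241 in the null-labelled lines. Acta2 led this list except in BVECTN_4, where it had 0 counts. Of 6 mesothelial markers, 5 were listed, and their sum of 172 and 174 against 489, 48.5 and 50.4 was nearly all Msln, with Lrrn4 at no more than 0.02.
The 9 epithelial markers summed to 1110 and 1786 in the BVE libraries and to 14148, 706 and 1462 in the null-labelled lines. Krt8 was the most abundant of them in both BVE libraries, Krt7 in BVECTN_4 and BVECTN_5, and Krt18 in BVECTN_4A. Epcam and Cdh1 had an FPKM of 152 and 136 in BVECTN_4 and of 59.6 and 20.9 in BVECTN_5, and neither was listed in BVECTN_4A. BVECTN_4A was also the null-labelled line with the most Aqp5. Of 8 leukocyte markers 5 were listed, and they summed to 12.1 and 22.3 against 125, 5.08 and 45.4, with Cd68 and Cd14 the most abundant and Ptprc, Adgre1 and Cd3e not listed. The 4 listed of 5 adipocyte markers summed to at most 8.65 except in BVECTN_5 with 455, most of it Fabp4. Markers of Schwann cells and glia and of thyroid C cells and parathyroid summed to at most 0.58 and 4.89. In each of these lists edgeR's quasi-likelihood test called 0 genes, while DESeq2 called Krt7, Pax8 and Pparg higher and Egfl7 and Upk1b lower, and the part of other cell types in the aquaporin values was not tested.

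**Figure D4:**
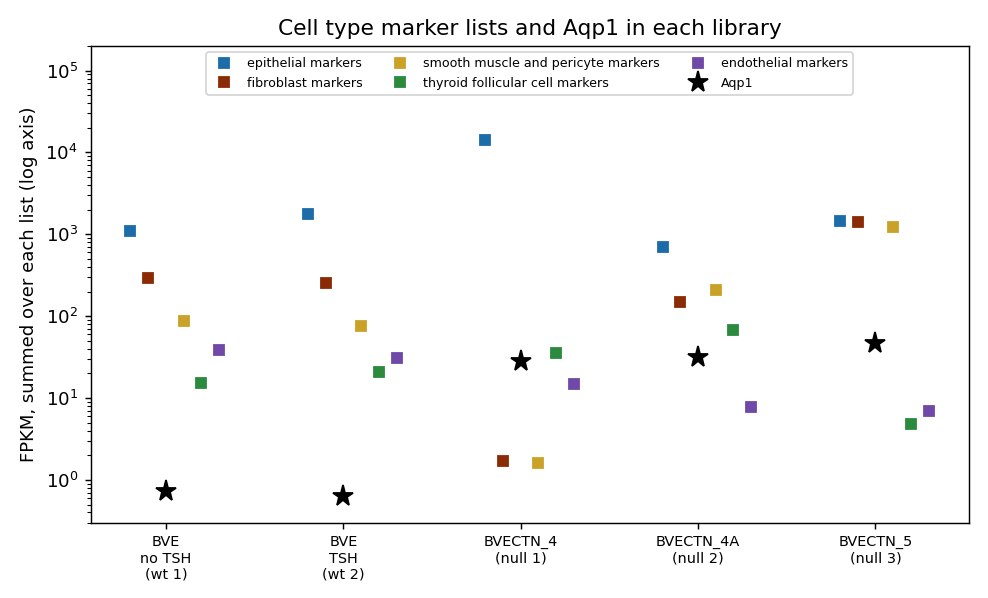
Summed FPKM (log axis) of 5 lists of cell type markers (squares) and the FPKM of Aqp1 (stars) in each library. Aqp1 was between 28.6 and 46.4 in the 3 BVE-Ctnnb1null-labelled lines. Among these lines, Aqp1 and the fibroblast list were both lowest in BVECTN_4 (28.6 and 1.70) and highest in BVECTN_5 (46.4 and 1413).

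Genes of water, salt and glycerol handling were then compared with edgeR's quasi-likelihood test. Over all 13240 genes, 0 were higher and 0 were lower at an adjusted p under 0.05 (0.0% in each direction), with 12.4% higher and 6.07% lower at an unadjusted p under 0.05. DESeq2 called 8.48% higher and 3.71% lower. Of 61 genes tested from 8 lists, 0 passed with edgeR, 12 were higher and 2 were lower at an unadjusted p under 0.05, and DESeq2 called 7 higher and 2 lower. Their median log2 fold change was 0.99, against 0.29 over all genes tested. It was 1.58 for the 19 of them in the longest group of transcripts and 0.64 for the other 42. Every BVE-Ctnnb1null FPKM lay above both BVE-Ctnnb1wt values for 47.5% of them, against 35.9% of all genes tested, and below for 4.92%, against 7.22%. By TMM CPM these shares were 32.8% above, against 22.6%, and 9.84% below, against 17.3%. Of all genes in the longest length group, 64.0% had every BVE-Ctnnb1null FPKM above.

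**Figure D5:**
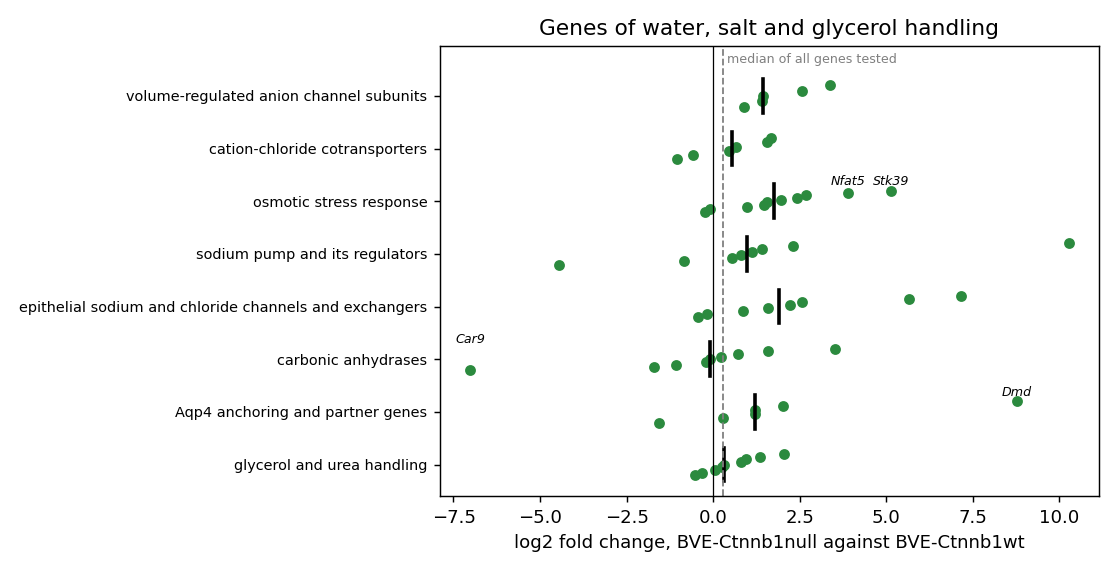
Log2 fold change of each tested gene (dots) in 8 lists, with the median of each list as a black bar and the median of all genes tested (0.29) as a dashed line. Car9 at -7.02 lay furthest to the left. The dots at 8.77 (Dmd) and 10.27 (Fxyd3) are fitted values against BVE-Ctnnb1wt libraries with 0 counts, and their size depends on the fit.

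The Lrrc8 genes encode the anion channel that opens when cells swell. Of its 5 subunit genes, 0 passed and the median log2 fold change was 1.44. The essential subunit Lrrc8a had an FPKM of 2.99 and 1.00 in the BVE libraries and of 9.85, 8.50 and 4.85 in BVECTN_4, BVECTN_4A and BVECTN_5, and its log2 fold change was 1.44 (SE 0.66). Lrrc8b had 0.28 and 0.07 against 3.79, 2.94 and 1.13, with a change of 3.38 on that scale (SE 1.05, edgeR adjusted p = 0.202). Lrrc8c and Lrrc8d, with log2 fold changes of 0.88 and 1.42, also had every null-labelled line above both BVE libraries. By FPKM, this held for 35.9% of all genes tested and for 45.9% of those of 3256 to 4558 bases. The median length of the 5 subunit genes was 3878 bases. Lrrc8e, named here after its values were seen, overlapped between the groups, with an FPKM of 0.33 and 0.18 against 4.26, 0.16 and 2.15.

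The osmotic stress genes had a median log2 fold change of 1.75 over 10 genes tested, 6 of them in the longest length group, and 0 passed. Stk39, the kinase SPAK that switches chloride cotransporters, had an FPKM of 0.24 and 0.06 in the BVE libraries and of 10.9, 3.20 and 8.41 in the null-labelled lines. On the log2 scale it differed by 5.15 (SE 1.01, edgeR adjusted p = 0.180), and DESeq2 called it. Akr1b3, the aldose reductase that makes sorbitol, was the most abundant gene of the list and had 87.1 and 101.8 against 151.7, 108.9 and 139.0, with a log2 fold change of -0.09 (SE 0.42). The taurine transporter Slc6a6 (1.56) and the kinase Sgk1 (1.48) had standard errors of 0.69 and 1.03, and BVECTN_4 was under both BVE libraries for Sgk1. Nfat5, the transcription factor of the osmotic response, is named here after its values were seen. It had an FPKM of 0.14 and 0.08 in the BVE libraries and of 2.23, 3.56 and 1.59 in the null-labelled lines (edgeR adjusted p = 0.180).

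Among 6 cation-chloride cotransporter genes tested, 4 of them in the longest length group, 0 passed and the median was 0.56. Slc12a2, the cotransporter NKCC1 that drives fluid secretion with Aqp5 in glands, had an FPKM of 3.20 and 1.85 in the BVE libraries and of 16.5, 13.0 and 5.37 in the null-labelled lines. On the log2 scale it differed by 1.67 (SE 0.64, edgeR adjusted p = 0.247). Slc12a7 went the same way with 1.57 (standard error 0.72), and Slc12a4 overlapped between the groups with -0.58 (standard error 0.64).

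Of 8 sodium pump genes tested, 0 passed, with a median of 0.97. Atp1b3 overlapped between the groups, and Fxyd5, a regulator of the pump, had an FPKM of 53.1 and 61.4 against 50.1, 48.5 and 46.2. Of 8 sodium and chloride channel and exchanger genes tested, 4 of them in the longest length group, 0 passed, with a median of 1.90. The chloride channel gene Ano1 had 3.83 and 5.19 in the BVE libraries against 64.1, 22.4 and 5.49, and Ano6 had 5.57 and 3.79 against 14.4, 24.9 and 23.6. The anion exchanger gene Slc4a2 overlapped between the groups. On the log2 scale Ano6 differed by 1.58 (SE 0.45, edgeR adjusted p = 0.192), and DESeq2 called it.

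Carbonic anhydrases, which form bicarbonate and protons from carbon dioxide and water, had a median log2 fold change of -0.09 over 9 genes tested, and 0 passed. Car9, a membrane enzyme known as a hypoxia target, had an FPKM of 17.9 and 39.0 in the BVE libraries and of 0.39, 0.47 and 0.14 in the null-labelled lines. On the log2 scale it differed by -7.02 (SE 0.81, edgeR adjusted p = 0.180), and it passed with DESeq2 and without a filter on low counts. Car5b and Car13 overlapped between the groups.

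Of 6 tested genes that anchor or partner Aqp4, which was itself not listed, 3 were in the longest length group. Of these 6 genes, 0 passed, and the median was 1.22. Dag1, the dystroglycan gene, and Agrn both had a log2 fold change of 1.22, with standard errors of 0.58 and 0.66. When single libraries were left out, Dag1 ran from 0.66 to 1.45 and Agrn from 0.86 to 1.57. Among 9 glycerol and urea genes tested, 0 passed, with a median of 0.31. Pnpla2, the lipase that starts triglyceride breakdown, had 16.7 and 15.4 in the BVE libraries against 67.9, 30.6 and 24.3. The glycerol-phosphate enzyme gene Gpd1 had 0.48 and 0.59 against 4.42, 4.98 and 0.61. Slc14a1, a urea transporter, ran from 0.45 in BVECTN_5 to 72.8 in BVECTN_4A, on either side of 28.5 and 19.2 in the BVE libraries, and Dgat1 overlapped as well.

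The genes whose profile over the 5 libraries was most like that of Aqp1 were sought among 10826 genes with a mean FPKM of at least 1, by the root mean square distance of log2(FPKM + 0.1) after each profile was centred on its mean. They were Cd59a (0.228), Aldh1a7 (0.398), Neo1 (0.544), Npr2 (0.570) and Cldn1 (0.578). Cd59a, a complement inhibitor, had an FPKM of 0.13 and 0.06 in the BVE libraries and of 6.53, 5.29 and 9.18 in the null-labelled lines. With 1 added in place of 0.1, 0 of these 5 genes were among the nearest, which were then Thbs1, Pmp22, Gyg, Hspa1b and Rcn2. For Aqp5 the nearest were Nol3 (0.362), Ripply1 (0.488) and Il34 (0.494). Nol3 had 20.0 and 27.3 in the BVE libraries and 1.60, 5.95 and 0.30 in the null-labelled lines, and it was nearest under both settings. For Aqp3 they were Ptpn18, Rtkn and Zscan2 (0.117 to 0.122), and for Aqp11 Dynlt1f, Acsl3 and Prkaca (0.099 to 0.109). With 1 added, the nearest were instead Bad, Ap4m1 and Dnpep for Aqp3, Akr1b3, Pcdhgc3 and Map1lc3b for Aqp11, and Nol3, Dkk3 and Mmp2 for Aqp5.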

How the data were processed

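Total RNA of 5 mouse thyroid tumor cell line libraries was sequenced from TruSeq libraries on an Illumina HiSeq instrument. For each library the authors deposited estimated counts per RefSeq transcript and FPKM values, listed from an FPKM of 0.01 upward. The aligner, counting program, genome build and annotation are not given in the sources used here. The sources do not state whether the libraries keep the strand. Estimated counts and FPKM were summed per NCBI gene number, counts were rounded, and a gene not listed was set to 0. Symbols came from the RefSeq gene table of GRCm38.p6 (17866 of 17923 genes matched). The BVE-Ctnnb1null libraries were compared with the BVE-Ctnnb1wt libraries with edgeR 4.0.16 in R 4.3.3 (TMM, filterByExpr, glmQLFit, glmQLFTest), with Benjamini-Hochberg adjustment over 13240 genes and a threshold of 0.05. The standard error is the log2 fold change divided by the root of the quasi-F statistic. The study speaks of biological replicates, more per group than the 2 BVE-Ctnnb1wt libraries of a single line name that the labels give, and does not say whether these were separate cultures. The p-values therefore measure the spread between these libraries, which may be partly technical.

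The alternatives were DESeq2 1.42.0, other filters (none, or at least 10 counts in every library), library totals without TMM, limma 3.58.1 with trend on log2(FPKM + 0.1, 0.01 or 1) keeping genes that reached an FPKM of 0.5 in 2 or more libraries, each library left out, the replicate number as a block, and, added after seeing the data, centring on genes of like transcript length. The edgeR, DESeq2 and limma fits were tested on simulated data with much less spread between libraries than these data have. That test therefore does not show how well the fits find changes here. Counting intervals are exact at 95% (Python 3.11.15, scipy 1.17.1) and cover counting error only. The members and gene lists were chosen with earlier results of these data known. Genes are named by a fixed rule. It takes every member, Ctnnb1 and up to 3 most abundant genes of each list. It also takes any called gene and the non-overlapping gene with the largest change among those with a mean FPKM of at least 1. The 5 genes most like Aqp1 and the 3 most like other members are named as well. The upstream sequences of Aqp1 and Aqp5, Nfat5, Lrrc8e, single defining cell type markers, the genes at 0 in a figure caption and the genes of the chromosome order were added after the values were seen. The values of some genes of these lists are not reported here. The experiments in mice were not analysed here.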

Additional observations from a re-analysis of the deposited data

How the results depend on the processing

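The p-values rest on 2 libraries of 1 line against 3 lines, and depth limits Aqp8 and Aqp9, which had at most 13 and 4 counts. The number of genes called higher was 0 with edgeR, 1113 with DESeq2 and 1 with limma on log2 of FPKM with 0.1, 0.01 or 1 added, and that 1 gene was Aqp1. The DESeq2 counts include Aqp1 (higher) and Aqp5 (lower). The aquaporins were chosen on this contrast, so nothing is read from these calls. The number called lower was 0, against 487 with DESeq2, 4 without a filter on low counts (Car9, Crabp1, the pseudogene Ubb-ps and a gene with no symbol), 1 with at least 10 counts in every library (Crabp1), and 5, 3 and 7 with limma and 0.1, 0.01 and 1 added. With limma, Crabp1, Ubb-ps and the gene with no symbol were called each time, and Eno1b and Vip with 0.1 and 1 added. These genes were named after their values were seen. It was 0 to 0 in both directions when single libraries were left out. Of the listed genes, DESeq2 called 7 higher (Ano6, Dmd, Lrrc8b, Nfat5, Slc4a4, Stk39 and Wnk1) and 2 lower (among them Car9), and 1, Car9, was lower without a filter.

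The log2 fold change of Aqp1, 5.11, moved to 5.48, 5.65 and 4.41 with limma and 0.1, 0.01 and 1 added and to 5.69 without TMM, which shifted the median of all genes from 0.29 to 0.87. It was 4.86 to 5.16 when single libraries were left out. Aqp11 was 0.82 and 0.86 with limma and 0.1 and 0.01 added, 0.84 without TMM and -0.18 to 0.63 when single libraries were left out. For uncalled listed genes with small changes the sign turned. With limma and 0.1, 0.01 and 1 added, these were Akr1b3 (0.49, 0.49 and 0.48), Car5b (0.21, 0.21 and 0.22), Dgat1 (0.10 each) and Slc4a2 (0.10, 0.10 and 0.09). Without TMM they were Akr1b3 (0.49), Car5b (0.48), Dgat1 (0.23), Slc14a1 (0.10) and Slc4a2 (0.07). When single libraries were left out, Akr1b3 ran from -0.36 to 0.05, Atp1b3 from -0.13 to 0.93, Car5b from -0.64 to 0.24, Slc14a1 from -3.85 to 0.06 and Slc4a2 from -1.09 to 0.36. Without a change of sign, Ano1 ran from 0.95 to 2.66, Lrrc8a from 0.81 to 2.20, Lrrc8b from 2.63 to 4.51, Slc12a7 from 0.75 to 1.89, Stk39 from 4.43 to 6.24, Car9 from -7.62 to -6.31, Sgk1 from 0.69 to 1.97, Slc12a4 from -1.44 to -0.32 and Slc6a6 from 0.90 to 1.92. The causes of these moves were not tested.

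With the replicate number as a block, 0 genes passed, the log2 fold change of Aqp1 was 4.90 and that of Aqp5 -2.93, while Sgk1 turned to -0.04 and Slc4a2 to 0.13. Libraries of the same number did not deviate together (correlations of -0.11 for both numbers shared by the groups). With only 2 BVE-Ctnnb1wt libraries, their deviations mirror each other and these correlations are not independent. They do not show whether libraries of the same number share more than that number.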

Other observations

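Aqp2, Aqp5 and Aqp6 follow one another on mouse chromosome 15, by the gene order of GRCm38.p6, and the genes around them were looked up after the values were seen. Aqp2 was not listed. Aqp5 had a lower FPKM in every line labelled BVE-Ctnnb1null than in both BVE libraries, as did 7.22% of the genes tested. Aqp6 had 14 and 10 counts in the BVE libraries against 2, 2 and 0, too few to pass the filter, and no direction is read from them. Asic1, an acid-sensing ion channel gene that lies beyond Racgap1, had an FPKM of 8.35 and 8.04 in the BVE libraries and of 1.17, 5.06 and 1.27 in BVECTN_4, BVECTN_4A and BVECTN_5, with BVECTN_4A highest among the null-labelled lines as for Aqp5. On the log2 scale it differed by -2.33 (SE 0.73, edgeR adjusted p = 0.203). On the other side of Aqp2, Faim2 and Bcdin3d overlapped between the groups, and Nckap5l had an FPKM of 1.32 and 1.12 in the BVE libraries against 7.12, 3.47 and 2.95. Racgap1, between Aqp6 and Asic1, overlapped between the groups with 0.12 (standard error 0.60), and Smarcd1 on the far side of Asic1 had 3.07 and 3.00 against 10.3, 11.3 and 7.70.

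Around Aqp1 on chromosome 6, Mindy4 on one side had an FPKM of 1.23 and 2.94 in the BVE libraries and of 1.90, 4.24 and 1.5 in the null-labelled lines. On the other side, Ghrhr and Adcyap1r1 had at most 0.02 in any library. Inmt, next to Mindy4, had 119 in BVECTN_4A and at most 0.07 elsewhere. Mindy4 and Inmt overlapped between the groups, and at these levels Ghrhr and Adcyap1r1 show no direction. No annotated gene overlapped Aqp1. Aqp5 was overlapped by 1 annotated gene, the long noncoding RNA gene Gm34765, which was not listed in any library.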
